A study of Mus musculus with 12 samples.

Results

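In mouse ear skin inflamed by imiquimod, GW3965, which activates liver X receptors (LXR), was compared directly with troglitazone, which activates PPARγ. The members are the libraries whose titles name IMQ/GW3965 or IMQ/Troglitazone, 3 of each, which makes 6 of the 12 libraries in the series. The mice were C57BL/6 of 8 to 12 weeks, and bulk mRNA of the ear was sequenced on day 6. All 6 libraries carry imiquimod, a Toll-like receptor agonist that provokes psoriasis-like inflammation, given each day as 20.8 mg of Aldara cream (5% imiquimod) on the back of the ear, with tissue taken 1 day after the last application.

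The GW3965 group had 20 mg/kg and the troglitazone group 150 mg/kg, each injected into the peritoneum once a day from day 3. The drugs were dosed differently and are not analogs of each other, so a difference between the groups is one between 2 dosed treatments. The imiquimod vehicle group (IMQ_Veh, 3 libraries, DMSO injections) is shared by both drugs where each is set against its vehicle; the group without imiquimod in its label (UTX_Veh, 3 libraries) enters through the filter on low counts, the scaling and length correction, and the estimate of spread, and is compared with no group here. Whether each library is a different animal is not stated in the labels; the p-values therefore describe the spread among these libraries, some of which may be technical. In whole skin, fewer cells of a type and less RNA per cell cannot be told apart.

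LXRα and LXRβ sense oxysterols, pair with RXR on DNA and switch on cholesterol efflux genes and Srebf1, the factor that drives fatty acid synthesis. PPARγ also pairs with RXR, and directs fatty acid uptake and storage in fat cells and sebocytes. The related PPARα and PPARδ act on fatty acid oxidation and, in epidermis, on keratinocyte differentiation. Unliganded receptors of both kinds recruit corepressors such as Ncor1.

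Of 17130 genes tested, 1 differed between the drugs: Elovl5, the enzyme that elongates polyunsaturated fatty acids, was higher with GW3965 (edgeR quasi-likelihood test, two-sided, Benjamini-Hochberg adjusted p under 0.05; 0.00584% of genes tested). Levels are given in CPM (the usual count of a gene scaled to its library total), corrected in each library for the trend with gene length. Elovl5 stood at 90.5, 73.3 and 79.0 CPM in the GW3965 libraries and at 45.8, 45.8 and 42.6 CPM in the troglitazone libraries. The groups did not overlap, and the lowest GW3965 library lay well above the highest troglitazone library. The log2 difference was 0.86 ± 0.10 (SE; 1.81-fold; 95% interval 0.63 to 1.08; edgeR adjusted p = 0.0319), and DESeq2, run as an alternative on the same corrected counts, gave an adjusted p of 1.56e-10. Set against the imiquimod vehicle, at 47.7, 44.8 and 54.2 CPM, Elovl5 rose with GW3965 by a log2 difference of 0.73 (edgeR adjusted p = 0.00532). For troglitazone the same difference was -0.13 (edgeR adjusted p = 0.443). With 1 library left out the Elovl5 call was lost, whichever of the 6 it was: the log2 difference then lay between 0.77 and 0.92 and the edgeR adjusted p between 0.0522 and 0.228. The call was also lost with length and GC content corrected together (edgeR adjusted p = 0.0557), with the replicate number as a block (0.0827), and in fits of the 9 imiquimod libraries (0.101) or the 6 drug libraries (0.0904).

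Elovl5 lies on chromosome 9 of GRCm38, from 77917364 to 77984519. The 250 bases before its RefSeq start are printed here because it is the gene that was called, and they are followed by those of 4 lipid genes that hold a sequence read as an LXR element. All are from the RefSeq promoter table (GRCm38.p6), 5′ to 3′ on the strand of the gene. In Elovl5 the capitals mark an E-box (CACGTG), a motif bound by SREBP and other factors, and 2 CCAAT boxes that appear as ATTGG on this strand. In the other genes they mark TGACC and TAACC with 5 bases between them, a direct repeat of 2 degenerate receptor half-sites that is read from the other strand and is called the LXR element here. These letters were written after the Abca1 and Srebf1 windows had been read, so only Acsl3 and Fasn were found by the search. The Elovl5 window holds no such element. Neither do the windows of the other Srebf1 starts, nor those of Scd3, Fads2 and Acsl5, lipid genes described below.
Elovl5 (chr9:77917115-77917364, plus strand): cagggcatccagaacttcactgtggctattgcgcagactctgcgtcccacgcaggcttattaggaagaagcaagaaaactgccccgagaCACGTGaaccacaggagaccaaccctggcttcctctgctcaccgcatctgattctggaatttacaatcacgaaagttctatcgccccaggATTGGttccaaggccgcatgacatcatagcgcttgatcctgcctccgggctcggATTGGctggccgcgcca
Srebf1 (chr11:60210472-60210721, minus strand): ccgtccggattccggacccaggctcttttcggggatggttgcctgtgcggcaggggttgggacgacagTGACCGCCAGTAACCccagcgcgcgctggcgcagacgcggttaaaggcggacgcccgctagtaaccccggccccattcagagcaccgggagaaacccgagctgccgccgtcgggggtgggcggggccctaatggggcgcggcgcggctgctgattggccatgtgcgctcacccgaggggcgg
Abca1 (chr4:53159896-53160145, minus strand): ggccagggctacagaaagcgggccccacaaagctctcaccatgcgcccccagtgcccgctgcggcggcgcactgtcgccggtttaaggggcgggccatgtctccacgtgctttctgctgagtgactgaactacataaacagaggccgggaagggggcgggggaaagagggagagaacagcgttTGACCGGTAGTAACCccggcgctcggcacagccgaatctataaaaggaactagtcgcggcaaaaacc
Acsl3 (chr1:78657575-78657824, plus strand): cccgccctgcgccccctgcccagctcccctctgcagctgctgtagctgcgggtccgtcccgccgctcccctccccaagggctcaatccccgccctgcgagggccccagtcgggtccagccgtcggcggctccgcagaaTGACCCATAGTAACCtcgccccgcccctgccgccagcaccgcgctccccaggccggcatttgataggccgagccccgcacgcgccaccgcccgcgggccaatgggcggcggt
Fasn (chr11:120824548-120824797, minus strand): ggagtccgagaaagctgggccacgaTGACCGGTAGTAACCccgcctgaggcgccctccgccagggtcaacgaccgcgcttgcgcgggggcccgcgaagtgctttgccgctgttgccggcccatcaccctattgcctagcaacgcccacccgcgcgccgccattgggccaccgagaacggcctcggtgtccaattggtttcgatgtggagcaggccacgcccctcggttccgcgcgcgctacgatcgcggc

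Of 32851 promoter windows of 250 bases, 15 (0.0457%) hold the LXR element on either strand, and these belong to 12 genes, of which 8 were tested. Among tested genes with a window, 3 of 21 LXR targets hold it (Abca1, Srebf1 and Fasn) and 0 of 31 PPAR targets. The letters came from the Abca1 and Srebf1 windows, so these counts do not measure enrichment. The genes were also counted at any of their starts, and all promoters by single window. The strict repeat of AGGTCA with 4 bases between is in 5 of all windows, and that with 1 base between, the spacing read by PPAR, is in 11. The single half-site AGGTCA is in 4607 windows, the sterol element TCACNCCAC in 1.05%, the E-box CACGTG in 6.02% and CCAAT in 33.8%. Both strands were searched, and the single half-site was counted again where a repeat holds it. A match describes letters in this window and is not evidence of binding.

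The 4 genes with the element differed in how the drugs compared. The sterol-activated factor Srebf1 stood at 308, 347 and 268 CPM with GW3965 and at 213, 188 and 168 CPM with troglitazone, with no overlap. Its log2 difference was 0.70 ± 0.15 (SE; 95% interval 0.35 to 1.04), which missed the edgeR threshold (adjusted p = 0.25) and passed that of DESeq2 (adjusted p = 0.0105). Acsl3, which activates fatty acids to acyl-CoA, stood at 28.6, 32.7 and 27.3 CPM against 20.9, 18.9 and 21.5 CPM. The log2 difference of Acsl3 was 0.53 ± 0.10 (SE; 95% interval 0.30 to 0.76; adjusted p = 0.221 by edgeR and 0.00337 by DESeq2). The cholesterol efflux pump Abca1 stood at 141, 201 and 153 CPM with GW3965 and at 118, 78.9 and 119 CPM with troglitazone, a log2 difference of 0.64 ± 0.21 (SE; 95% interval 0.17 to 1.12; adjusted p = 0.508 by edgeR and 0.228 by DESeq2). Fatty acid synthase, Fasn, had overlapping groups at 867, 699 and 597 against 905, 807 and 562 CPM, with a log2 difference of -0.07 ± 0.20 (SE; 95% interval -0.53 to 0.38; edgeR adjusted p = 0.99). Against the imiquimod vehicle, Fasn rose with both drugs, by log2 0.77 with GW3965 (edgeR adjusted p = 0.0431) and by 0.84 with troglitazone (edgeR adjusted p = 0.0393).

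**Figure D1:**
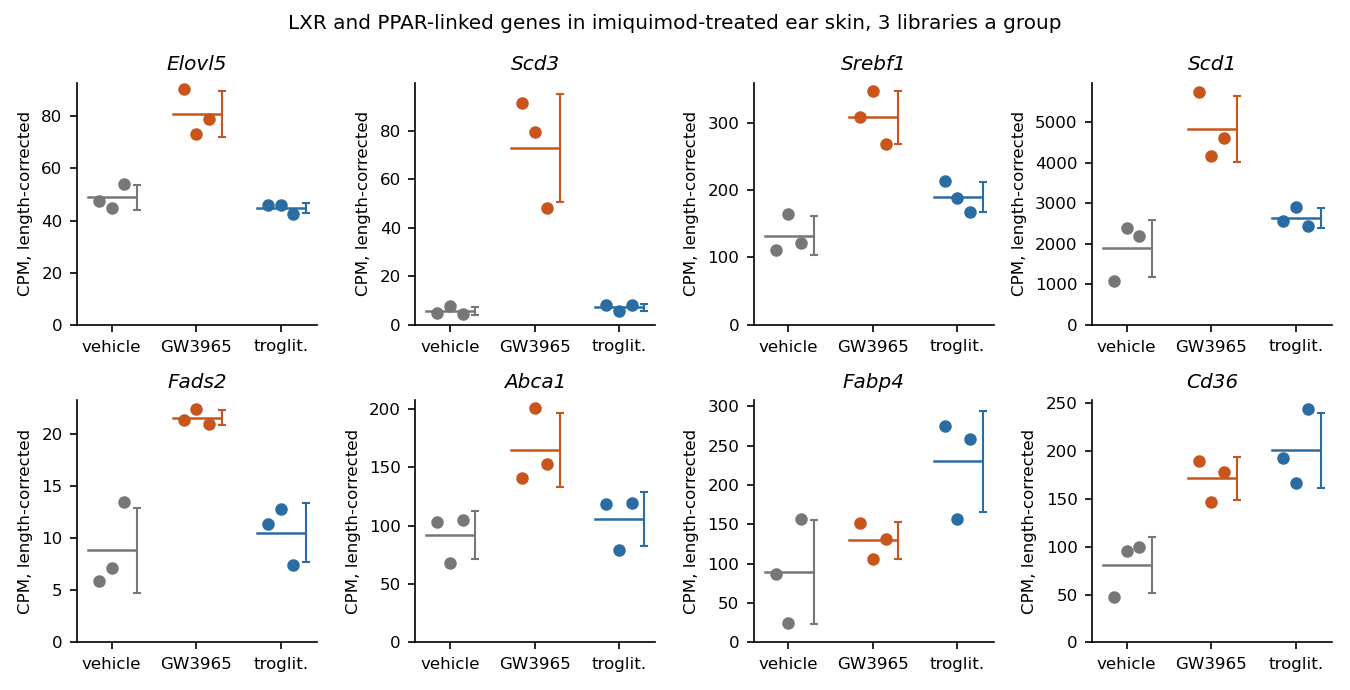
Length-corrected CPM of 8 genes in each imiquimod library (points, 3 a group), with the group mean (line) and SD (bar). Elovl5 sits between 73.3 and 90.5 CPM with GW3965 and between 42.6 and 45.8 CPM with troglitazone; Fabp4 is higher in every troglitazone library than in every GW3965 library, while the groups of Cd36 overlap.

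At an unadjusted p under 0.05 edgeR gave 1188 genes (6.94%), 497 higher (2.9%) and 691 lower (4.03%) with GW3965. In 2597 genes (15.2%) the groups did not overlap, 1325 with GW3965 higher (7.73%) and 1272 with GW3965 lower (7.43%). DESeq2 called 79 of the 16452 genes it tested (0.48%), of which 25 were higher with GW3965 (0.152%) and 54 lower (0.328%). Of the 54 lower genes 20.4% were annotated as other than protein coding, and of the 25 higher ones 8%, beside 12.4% of all genes tested. The gene next to Elovl5 by edgeR was a predicted model, Gm45799, at 0.471, 1.01 and 0.618 CPM with GW3965 against 3.69, 6.65 and 5.57 CPM with troglitazone (log2 -2.92 ± 0.39, SE; adjusted p = 0.0653 by edgeR and 7.65e-09 by DESeq2), chosen after its values were seen.

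**Figure D2:**
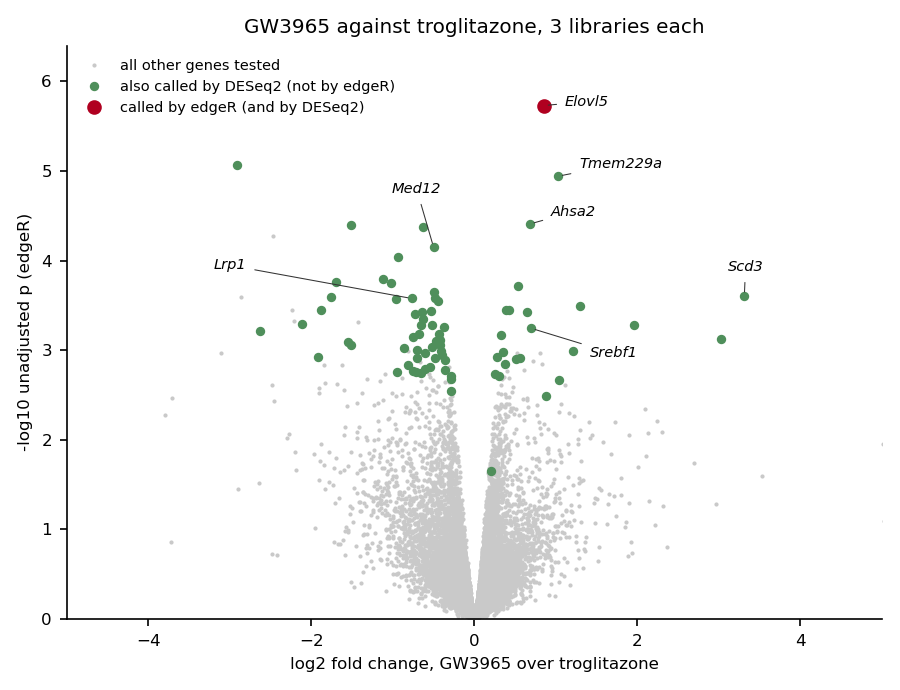
Each point is 1 of 17130 genes, with the log2 fold change of GW3965 over troglitazone on the x axis and -log10 of the unadjusted edgeR p on the y axis; 14 genes lie outside the x limits of 5. Elovl5 is the point called by edgeR, and the other 78 genes that DESeq2 called are in green.

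Of 28 genes of de novo fatty acid synthesis and elongation that were tested, 1 was called higher by edgeR (Elovl5) and 0 lower. DESeq2 called 5 higher, beside 0.152% of the genes it tested. Groups did not overlap in 11 with GW3965 higher and in 1 with GW3965 lower, beside 7.73% and 7.43% of all genes. The median log2 difference of the list was 0.21 (0.12 without length correction), against 3e-04 over all genes tested. The 28 genes summed to 11060 to 12930 CPM with GW3965, 8167 to 8915 CPM with troglitazone and 5856 to 7856 CPM with vehicle. A large part of these sums was 1 gene, Scd1, with means of 4834, 2638 and 1883 CPM in that order. The largest log2 difference was that of Scd3, a stearoyl-CoA desaturase that makes monounsaturated fatty acids and is also a gene of sebaceous glands. Scd3 stood at 91.3, 79.6 and 48.1 CPM with GW3965 and at 8.09, 5.66 and 8.27 CPM with troglitazone, beside 4.96, 7.63 and 4.42 CPM with vehicle. All 3 GW3965 libraries lay far above the other 6 imiquimod libraries, and the log2 difference between the drugs was 3.31 ± 0.64 (SE; 9.93-fold; 95% interval 1.84 to 4.79). Its edgeR adjusted p was 0.221 in the fit of all 12 libraries, which include UTX_Veh at 3.57, 2.66 and 22.05 CPM. It was 0.0108 in a fit of the 9 imiquimod libraries and 0.00927 in a fit of the 6 drug libraries. In each of those smaller fits Scd3 took the place of Elovl5 as the 1 gene called. DESeq2 gave 0.00557.

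Scd1, the abundant member of that family, stood at 5742, 4157 and 4603 CPM with GW3965 and at 2563, 2914 and 2438 CPM with troglitazone. The groups did not overlap, with a log2 difference of 0.87 ± 0.24 (SE; 95% interval 0.33 to 1.42; adjusted p = 0.40 by edgeR and 0.0489 by DESeq2). Scd2 gave 871, 1040 and 1092 against 766, 574 and 425 CPM (log2 0.77 ± 0.22, SE; edgeR adjusted p = 0.42). RSEM divides reads that fit several genes, so how reads are shared among Scd1, Scd2, Scd3 and Scd4 depends on that division.

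Fads2, the desaturase that begins polyunsaturated fatty acid synthesis and so acts on the same pathway as Elovl5, stood at 21.2, 22.3 and 20.9 CPM with GW3965 and at 11.4, 12.8 and 7.39 CPM with troglitazone. The log2 difference of Fads2 was 1.03 ± 0.26 (SE; 2.05-fold; 95% interval 0.43 to 1.64; adjusted p = 0.349 by edgeR and 0.0435 by DESeq2). Its partner desaturase Fads1 had 40.1, 32.3 and 35.2 against 29.1, 28.5 and 29.8 CPM, also without overlap, at a log2 difference of 0.30 with a 95% interval of -0.11 to 0.71. Elovl6, which elongates saturated fatty acids, gave 510, 449 and 481 against 300, 346 and 360 CPM (log2 0.52 ± 0.15, SE; edgeR adjusted p = 0.42). Acsl5, another acyl-CoA synthetase, gave 243, 256 and 270 against 196, 181 and 208 CPM (log2 0.39 ± 0.08, SE; adjusted p = 0.221 by edgeR and 0.00191 by DESeq2). The groups of Acly, which makes cytosolic acetyl-CoA, and of Elovl1, which elongates very long saturated chains, overlapped at log2 differences of 0.11 and -0.11. Fads2, Fads1, Elovl6, Acsl3, Acsl5, Acly and Elovl1 were chosen after their values were seen, and Acsl3 and Acsl5 are on no list.

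Of 28 LXR target genes tested, edgeR called 0 between the drugs, with 11 at an unadjusted p under 0.05, all higher with GW3965 (2.9% of all genes). DESeq2 called 2, Srebf1 and Scd1, both higher, beside 0.152% of the genes it tested. The groups did not overlap in 12, again all with GW3965 higher, beside 7.73% of all genes, and the median log2 difference was 0.15 (0.11 without length correction). Several genes, among them Srebf1, Scd1, Scd2, Acaca and Fasn, are on this list and on that of fatty acid synthesis. The efflux pump Abcg1 stood at 58.5, 79.8 and 73.1 CPM with GW3965 and at 55.5, 39.8 and 43.8 CPM with troglitazone (log2 0.60 ± 0.17, SE; 95% interval 0.22 to 0.99; edgeR adjusted p = 0.409). Apoe, the lipid carrier, gave 1801, 1747 and 1707 against 1432, 1319 and 1634 CPM, with no overlap at a log2 difference of 0.26 ± 0.11 (SE; edgeR adjusted p = 0.691). Mylip, a ubiquitin ligase that degrades the LDL receptor, gave 59.3, 48.5 and 54.1 against 40.2, 35.9 and 50.1 CPM, and overlapped (log2 0.36; 95% interval 0.08 to 0.64). Lpcat3, which builds polyunsaturated phospholipids, differed by log2 0.18 (95% interval -0.05 to 0.40). Rnf145, a sterol-responsive ubiquitin ligase chosen after its values were seen, gave 74.7, 80.6 and 75.6 against 64.8, 63.8 and 61.5 CPM (log2 0.28 ± 0.07, SE; adjusted p = 0.302 by edgeR and 0.0163 by DESeq2).

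Each drug's own difference from the shared vehicle group puts these values side by side. GW3965 changed 1101 genes against vehicle (6.43%; 576 higher, 3.36%, and 525 lower, 3.06%) and troglitazone 712 (4.16%; 406 higher, 2.37%, and 306 lower, 1.79%). Of the 28 LXR targets, GW3965 raised 8 and troglitazone 3; of the 28 fatty acid genes, 10 and 1. No member of either list fell with either drug. Srebf1 rose with GW3965 (log2 1.22, edgeR adjusted p = 0.00404), and its value with troglitazone was 0.52 (adjusted p = 0.0677). Scd1 rose by log2 1.36 with GW3965 (adjusted p = 0.0146), beside 0.49 with troglitazone (adjusted p = 0.225). Apoe rose with both, by 0.92 and 0.66 (adjusted p = 0.00404 and 0.0148). These counts share 3 vehicle libraries, and a call for one drug and not for the other is no test of their difference, which is what the direct comparison measured. Without IMQ_Veh replicate 3 the counts were 3977 and 3733, and without IMQ_Veh replicate 1 they were 144 and 93.

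**Figure D3:**
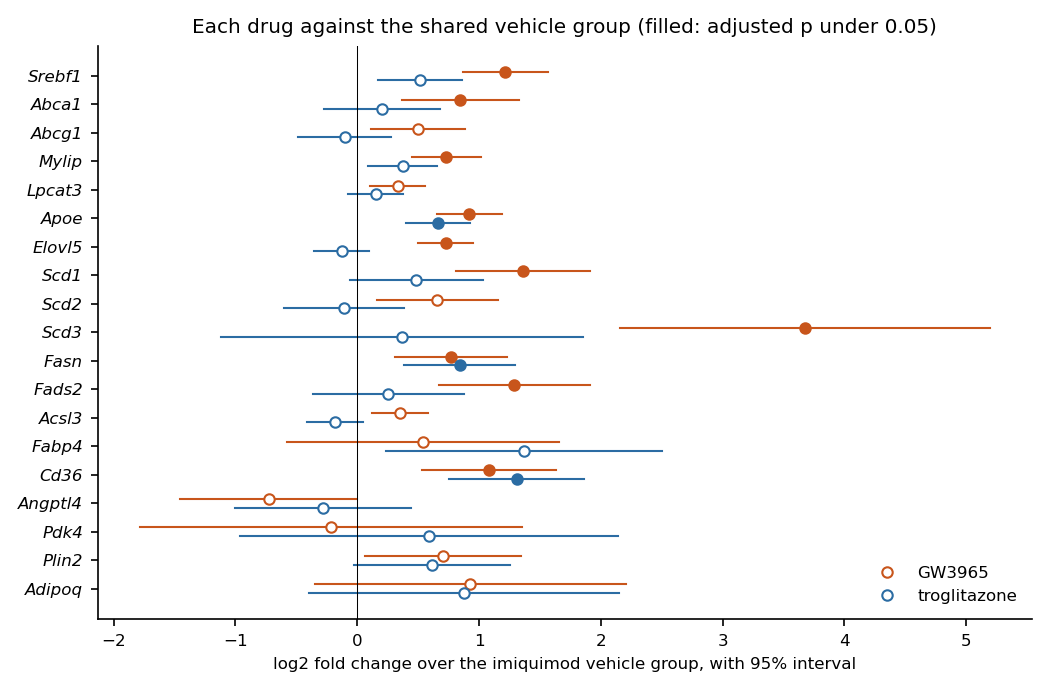
Log2 fold change of GW3965 (orange) and of troglitazone (blue) over the shared imiquimod vehicle group for 19 genes, with 95% intervals; filled points passed an adjusted p of 0.05. Srebf1, Elovl5, Scd1, Scd3 and Fads2 are filled for GW3965 and open for troglitazone, while Apoe, Fasn and Cd36 are filled for both.

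Cholesterol synthesis genes, which SREBP2 drives, held no edgeR call. Of 26 tested, edgeR called 0, and 3 had an unadjusted p under 0.05, all higher with GW3965 (2.9% of all genes). DESeq2 called 1, also higher, beside 0.152% of the genes it tested. In 21 the log2 difference was positive, with a median of 0.08 over the list. Insig1, which holds SREBP in the endoplasmic reticulum, gave 94.6, 85.7 and 88.8 against 80.3, 62.8 and 64.3 CPM (log2 0.38; 95% interval 0.12 to 0.63). Soat1, a gene of the sebaceous list that esterifies cholesterol for storage, gave 282, 242 and 237 against 182, 159 and 212 CPM (log2 0.46; 95% interval 0.03 to 0.89). Insig1 and Soat1 were chosen after their values were seen.

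PPAR target genes, a list not limited to PPARγ that also holds genes of fatty acid oxidation, held no edgeR call either. Of 43 tested, edgeR called 0 between the drugs. At an unadjusted p under 0.05, 4 were higher and 1 lower with GW3965, beside 2.9% and 4.03% of all genes. DESeq2 called 1, lower, beside 0.328% of the genes it tested. The groups did not overlap in 5 with GW3965 higher and in 2 with GW3965 lower, beside 7.73% and 7.43% of all genes, and the median log2 difference was 0.03. The 4 higher ones were Acadvl, Acaa2 and Cpt2, enzymes of mitochondrial fatty acid oxidation, and Fabp3, the fatty acid binding protein of muscle (log2 0.29, 0.24, 0.18 and 0.98), all chosen after their values were seen. All 23 skeletal muscle markers also had positive differences (median log2 0.40), and their part in these 4 was not tested. Against vehicle, GW3965 and troglitazone each raised 6 of the 43 and lowered 1. Over all genes, GW3965 raised 3.36% and lowered 3.06%, and troglitazone raised 2.37% and lowered 1.79%.

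Fabp4, the fatty acid binding protein of fat cells and a textbook PPARγ target, stood at 152, 106 and 131 CPM with GW3965 and at 275, 156 and 259 CPM with troglitazone. The groups did not overlap, but the SE, which takes its spread from all 12 libraries, was wide (log2 -0.83 ± 0.48, SE; 95% interval -1.95 to 0.29; edgeR adjusted p = 0.835). The fatty acid transporter Cd36 gave 190, 147 and 179 against 193, 167 and 244 CPM, a log2 difference of -0.23 with a 95% interval of -0.77 to 0.31. Cd36 rose against vehicle with both drugs, by log2 1.08 with GW3965 (edgeR adjusted p = 0.028) and 1.31 with troglitazone (0.0177). Gpd1 and Cidec, genes of glycerol supply and lipid droplets chosen after their values were seen, gave 58.1, 46.8 and 46.5 against 113, 55.7 and 60.5 CPM and 39.8, 30.4 and 37.3 against 69.7, 29.7 and 63.0 CPM. Both differed by log2 -0.60, with 95% intervals of -1.60 to 0.40 for Gpd1 and -1.94 to 0.75 for Cidec.

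In 4 further PPAR genes the groups overlapped. Angptl4, a lipase inhibitor, differed by log2 -0.45 (95% interval -1.18 to 0.28). Pdk4, which spares glucose by blocking pyruvate dehydrogenase, gave 26.1, 20.5 and 18.6 against 16.9, 14.3 and 82.7 CPM, so its troglitazone mean rested on replicate 3. The lipid droplet coat gene Plin2 differed by log2 0.09 (95% interval -0.55 to 0.72). The fat cell hormone Adipoq lay at 33.1 to 45.0 CPM with GW3965 and at 26.1 to 45.4 CPM with troglitazone. Its log2 difference was 0.05 ± 0.54 (SE). That SE takes its spread from all 12 libraries and is too wide to detect a difference of 2-fold. Of 22 adipocyte and brown fat genes tested, 0 were called by edgeR or DESeq2 and 0 had an unadjusted p under 0.05, with a median of 0.03.

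The receptors themselves did not differ by the edgeR test. In TPM values, which the authors scaled by gene length and library and which were not corrected for the length trend, Nr1h2 (LXRβ) stood at 48.0 ± 8.41 (SD, n = 3) with GW3965 and at 64.7 ± 3.07 with troglitazone, and Nr1h3 (LXRα) at 6.11 ± 2.09 and 6.69 ± 1.13. Ppard was at 36.9 ± 5.61 and 53.5 ± 9.45 TPM, Pparg at 12.3 ± 2.78 and 11.5 ± 0.82, and Ppara at 1.28 ± 0.57 and 1.68 ± 0.32. On this scale Nr1h2 exceeded Nr1h3, and Ppard exceeded Pparg and Ppara, in each of the 6 libraries. After length correction the log2 differences between the drugs were -0.11 for Nr1h2, 0.02 for Nr1h3, -0.11 for Ppard, 0.24 for Pparg, -0.43 for Ppara and 0.06 for Rxra, all with 95% intervals that include 0. Of 17 receptors, partners and corepressors tested, edgeR and DESeq2 called 0, and 3 had an unadjusted p under 0.05, all lower with GW3965 (4.03% of all genes). The most abundant of these, Ncor1, gave 108, 129 and 124 against 138, 158 and 153 CPM (log2 -0.31; 95% interval -0.51 to -0.12; edgeR adjusted p = 0.392).

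**Figure D4:**
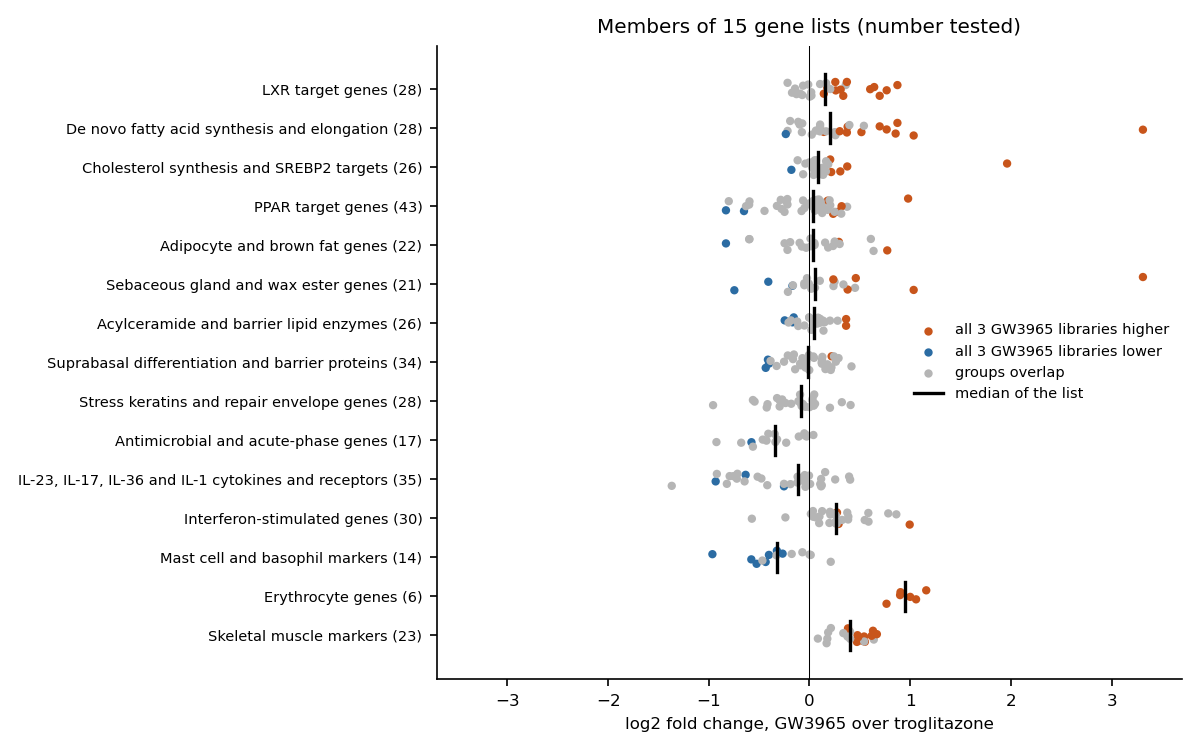
Log2 fold change of GW3965 over troglitazone for the tested members of 15 gene lists (1 point a gene, number tested in brackets), with the median of each list as a bar. Points are coloured where the 3 GW3965 libraries all lie above (orange) or all below (blue) the 3 troglitazone libraries; orange points gather in the lists of LXR targets, fatty acid synthesis, erythrocyte and muscle genes.

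In the epidermis and its glands no list held an edgeR call between the drugs. The defining keratinocyte markers were abundant in all 6 libraries, with Krt5 at 6752 to 8793 CPM and Krt14 at 7247 to 11790 CPM, and the sebocyte and adipocyte markers Awat2 and Adipoq were detected in each; Ly6g of neutrophils and Matn1 of cartilage fell below the count filter. Of 34 suprabasal differentiation genes tested, 2 had an unadjusted p under 0.05, both lower with GW3965 (4.03% of all genes). They were the desmosomal cadherins Dsg1b and Dsc1, chosen after their values were seen, at log2 -0.40 and -0.41. The median log2 difference of the list was -0.02, and 0.004 without length correction. Flg2, a filaggrin-like barrier protein, gave 645, 569 and 406 against 493, 333 and 664 CPM (log2 0.12; 95% interval -0.58 to 0.82), after rising against vehicle with both drugs (log2 2.61 and 2.49; edgeR adjusted p = 0.00404 and 0.00757). Of 28 stress keratin and repair genes, 0 had an unadjusted p under 0.05 by edgeR, DESeq2 called 0, and the groups overlapped in each. Krt6a, a keratin of wounded and psoriatic skin, gave 2145, 3041 and 2138 against 3150, 2944 and 1090 CPM (log2 0.03; 95% interval -0.77 to 0.83). Of 26 acylceramide and barrier lipid genes, 2 had an unadjusted p under 0.05 with GW3965 higher and 1 lower, beside 2.9% and 4.03% of all genes. Acer1, a ceramidase of the upper epidermis chosen after its values were seen, gave 176, 181 and 188 against 144, 127 and 152 CPM (log2 0.36 ± 0.09, SE; edgeR adjusted p = 0.346). Of 21 sebaceous gland genes, with a median of 0.06, edgeR called 0 and DESeq2 called 2 higher, Scd3 and Fads2, beside 0.152% of the genes it tested. The sebocyte marker Awat2, also chosen after its values were seen, lay between 4.10 and 5.28 CPM with GW3965 and between 4.91 and 6.30 CPM with troglitazone.

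The groups overlapped in Il17a, Il1b and S100a8. Il17a, the cytokine that drives psoriatic inflammation, was at 0.121, 0.143 and 0.177 CPM with GW3965 and at 0.167, 0.556 and 0 CPM with troglitazone, near the detection limit, beside 1.56, 3.21 and 0.555 CPM with vehicle. Il1b gave 10.7, 11.1 and 21.8 against 17.9, 13.6 and 1.48 CPM, where troglitazone replicate 3 stood apart (log2 0.39; 95% interval -1.05 to 1.84). S100a8, a neutrophil and keratinocyte alarmin, gave 74.4, 396 and 551 against 628, 516 and 133 CPM (log2 -0.32; 95% interval -1.92 to 1.28). GW3965 replicate 1 and troglitazone replicate 3 were the low libraries of S100a8, so the spread within each drug exceeded the difference between them. Against vehicle, Il1b fell with both drugs (log2 -2.97 and -3.37; edgeR adjusted p = 0.0259 and 0.0208).

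Of 35 genes of the IL-23, IL-17, IL-36 and IL-1 axes, 3 had an unadjusted p under 0.05, all lower with GW3965 (4.03% of all genes). The median was -0.12, edgeR called 0, and DESeq2 called 1, lower, beside 0.328% of the genes it tested. That 1 was Il22ra1, the keratinocyte receptor subunit for IL-22, chosen after its values were seen, at 20.9, 29.2 and 25.1 CPM with GW3965 against 37.3, 37.2 and 42.2 CPM with troglitazone. The log2 difference of Il22ra1 was -0.63 ± 0.13 (SE; 95% interval -0.94 to -0.33; adjusted p = 0.244 by edgeR and 0.0105 by DESeq2), and against vehicle it rose with troglitazone (log2 0.93, edgeR adjusted p = 0.00858). Of 17 antimicrobial genes, 16 had a negative log2 difference, with a median of -0.34 after length correction and 0.05 without it; 0 had an unadjusted p under 0.05, and edgeR and DESeq2 called 0. Of 30 interferon-stimulated genes 28 had a positive one, with a median of 0.26 (0.35 without length correction); 0 had an unadjusted p under 0.05, edgeR and DESeq2 called 0, and the groups did not overlap in 3, beside 7.73% of all genes.

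Marker lists of erythrocytes, muscle, mast cells and neutrophils in whole ear held no call between the drugs by edgeR or DESeq2. Within some of them most genes differed in the same direction. All 6 erythrocyte genes tested had groups that did not overlap, with GW3965 higher, a median log2 difference of 0.95 (1.23 without length correction) and an unadjusted p under 0.05, though edgeR and DESeq2 called 0. Over all genes 7.73% did not overlap in that direction and 2.9% had such a p. Their summed level was 383.7 to 454.5 CPM with GW3965, 160.7 to 260.0 CPM with troglitazone and 210.6 to 587.1 CPM with vehicle, and the globin gene Hbb-bs gave 140, 172 and 175 against 84.5, 90.8 and 58.8 CPM. All 23 skeletal muscle markers had a positive difference, 10 of them without overlap (7.73% of all genes), and 0 had an unadjusted p under 0.05 or a call by edgeR or DESeq2; the sums overlapped at 10640 to 14590 and 7754 to 11350 CPM. Of 14 mast cell markers 11 had a negative difference and 7 did not overlap with GW3965 lower (7.43% of all genes), with a median of -0.33, 3 at an unadjusted p under 0.05 (4.03% of all genes) and 0 called by edgeR or DESeq2; Mcpt4, a mast cell protease, gave 65.1, 65.2 and 71.0 against 82.4, 80.7 and 88.6 CPM. Of 17 neutrophil markers edgeR and DESeq2 called 0, and the sums overlapped at 324.6 to 1704 and 502.4 to 2109 CPM. The part of these cell types in the lipid gene differences was not tested; the sebaceous list summed to 3177 to 3540 CPM with GW3965 and to 2733 to 3341 CPM with troglitazone, which overlapped.

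How the counts depend on gene length set the size of this comparison. Total counts per library in the 6 libraries ranged from 18242074 to 24314204, and GW3965 replicate 3 had 11.6% of its counts in 1 feature that took at most 0.138% elsewhere; leaving that feature out kept Elovl5 as the 1 gene called. Before correction, genes of up to 500 bases lay above their mean over the 12 libraries by log2 0.27 to 0.36 in the GW3965 libraries and between -0.13 and -0.06 in the troglitazone libraries, and for genes over 8000 bases the order was reversed, at -0.293 to -0.162 and -0.001 to 0.165. In the imiquimod vehicle libraries the same values were 0.153 to 0.28 and -0.275 to -0.042. In the UTX_Veh libraries they were -0.382 to -0.253 and 0.317 to 0.431. The trend with length separated the drug groups. A drug effect on long or short genes as such and a difference in RNA or library preparation therefore cannot be told apart. Without the correction edgeR called 319 genes (1.86%), 185 higher (1.08%; median length 683 bases) and 134 lower (0.782%; median length 5752 bases), against a median of 2399 bases over all genes tested. Of the 185 higher genes 47 encode ribosomal proteins. The 94 ribosomal protein genes tested had a median log2 difference of 0.42 before correction and 0.12 after it. Elovl5 was called either way, at log2 0.84 and an edgeR adjusted p of 0.0234 without the correction.

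**Figure D5:**
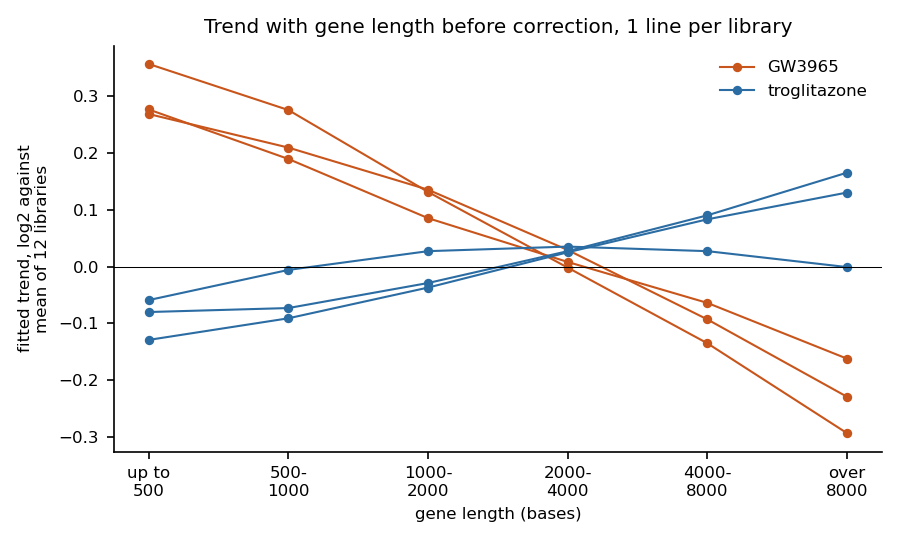
Fitted trend of log2 CPM with gene length in each of the 6 libraries, as the median within 6 length bins and relative to the mean over all 12 libraries, before correction. The GW3965 libraries (orange) run from 0.27 to 0.36 for genes up to 500 bases down to -0.293 to -0.162 for genes over 8000 bases, and the troglitazone libraries (blue) from -0.13 to -0.06 up to -0.001 to 0.165.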

How the data were processed

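Per the labels' protocols, RNA came from ear skin (mirVana, with a DNase step) and libraries were TruSeq stranded mRNA. Tools named in the submitters' processing notes are STAR 2.7.3a, RSEM 1.3.3, Trim Galore and FastQC, with the genome GRCm38 (mm10). Neither annotation release nor strand setting is given there, so antisense partners may be mixed. The authors deposited, per library, RSEM expected counts (estimated counts, not always whole), TPM values, FPKM values, which were not used, and a gene length in bases. Symbols and positions are those of GENCODE M21, which matched 52135 of 55416 identifiers.

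Expected counts were rounded and analysed in R 4.3.3. Genes passing filterByExpr by group (17130) were scaled by TMM. In each library a lowess curve (span 0.3, 3 robustness passes) of log2 CPM (prior count 2), minus the gene's mean over the 12 libraries, against log2 length was added to the offset. The quasi-likelihood test of edgeR 4.0.16 was fitted once to all 12 libraries (8 residual degrees of freedom). The SE is the absolute log2 difference divided by the root of edgeR's F, and 95% intervals use the t quantile for 8 degrees of freedom. Calls need an adjusted p (Benjamini-Hochberg, all genes) under 0.05. DESeq2 1.42.0 and limma-voom (limma 3.58.1) were alternatives. The fit was also run on simulated counts that gave every gene the same dispersion (0.0298) and each library its fitted length trend. That run therefore could not test differences in spread between genes or misfit of the length correction.

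The text names called genes of at least 1 CPM whose groups do not overlap, up to 4 called members of each of 32 gene lists (or its 2 most abundant), and 27 fixed genes; others are said to have been chosen after their values were seen. Of 733 list symbols, 731 matched; some list members that the counts include are not reported here by name. The members and lists were chosen with earlier results of these data known. Within each group, every pair of libraries differed by more than sampling noise (lowest chi-square per degree of freedom 8.29).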

Additional observations from a re-analysis of the deposited data

How the results depend on the processing

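Under the alternatives, the number of genes called between the drugs was 319 without length correction, 0 with length and GC content corrected together (1210 at an unadjusted p under 0.05), 79 with DESeq2 (25 higher and 54 lower), 14 with no filter on low counts, 3 with lane as a covariate, and 982 with DESeq2 without length correction, an alternative chosen after seeing the data, as were the lowess spans of 0.1 and 0.7 and the fits without a vehicle library. Lane stands here for a field in the names of the deposited data, L001 or L009. The labels do not explain that field, so what it records is not known. RLE or upper-quartile scaling, limma-voom, the stricter filter, the other spans and leaving out the dominant feature each kept 1 gene, Elovl5; fits of the 9 imiquimod libraries or of the 6 drug libraries gave 1, Scd3. With 1 library left out the count lay between 0 and 2: it was 0 without any of the GW3965 libraries or troglitazone replicates 2 and 3 (878 to 1423 at an unadjusted p under 0.05), and 1, the clone-named 2610005L07Rik, without troglitazone replicate 1.

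Against vehicle, GW3965 gave 2142 genes with DESeq2, 2248 with DESeq2 without length correction, 200 in the 9 imiquimod libraries, 112 in the 6 libraries compared and 484 with lane. Troglitazone gave 1600 without length correction, 1898 with DESeq2, 2660 with DESeq2 without length correction, 1166 with no filter, 146 in the 9 imiquimod libraries, 0 in the 6 compared (2722 at an unadjusted p under 0.05), 341 with lane, and 337 with lane and the replicate block. Leaving out 1 library gave 77 to 3977 genes for GW3965 and 70 to 3733 for troglitazone: the highest were without IMQ_Veh replicate 3, and the lowest without GW3965 replicate 1 and troglitazone replicate 3. The counts were also moved by over 1.5 times without GW3965 replicates 2 (217) and 3 (410), troglitazone replicate 1 (213) and IMQ_Veh replicate 1 (144 and 93). The cause was not tested.

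Same-numbered GW3965 and troglitazone libraries did not deviate together (r = -0.152, 0.151 and -0.248 over genes), and not every one of these libraries correlated best with its own number. The values were 0.078, 0.286 and 0.386 for UTX_Veh with IMQ_Veh, where each did, 0.098, 0.292 and 0.136 for IMQ_Veh with troglitazone, and -0.23, 0.061 and 0.003 for IMQ_Veh with GW3965. In each of these comparisons at least 1 value was under 0.1, so the numbers were not taken to pair the samples. With the replicate block the count between the drugs was 1, Gm45799, lower with GW3965, in place of Elovl5 (adjusted p = 0.0827); against vehicle it was 1427 for GW3965 and 864 for troglitazone. Of 100 genes followed under the alternatives, which leave out some genes named here, 28 had an unadjusted p under 0.05. Of these, 0 changed sign under any alternative. That is no independent check of direction, because the p came from the same libraries. Of the others 33 changed sign, none while past the threshold. With 3 libraries a group, Elovl5 held its call under 15 of 26 alternatives.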

Other observations

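Some genes outside the gene lists differed by DESeq2 and not by edgeR. All were chosen after their values were seen. Tmem229a, a transmembrane protein gene, gave 5.43, 5.24 and 5.38 CPM with GW3965 against 2.62, 2.33 and 2.88 CPM with troglitazone (log2 1.03 ± 0.14, SE; adjusted p = 0.0653 by edgeR and 7.31e-05 by DESeq2). Ahsa2, a cochaperone gene, gave 37.5, 32.5 and 33.6 against 22.4, 18.6 and 23.4 CPM (log2 0.68; adjusted p = 0.119 by edgeR and 6.9e-05 by DESeq2), and here the troglitazone libraries lay below the vehicle libraries at 32.3, 31.0 and 29.5 CPM (troglitazone against vehicle: log2 -0.53, edgeR adjusted p = 0.0237). Lrp1, a scavenger receptor for lipoproteins, gave 442, 418 and 323 against 698, 738 and 577 CPM (log2 -0.77 ± 0.15, SE; adjusted p = 0.221 by edgeR and 0.00191 by DESeq2). Alox5, the enzyme that begins leukotriene synthesis, gave 16.6, 17.0 and 16.9 against 23.0, 23.1 and 22.2 CPM, and rose with troglitazone against vehicle (log2 0.71, edgeR adjusted p = 0.00788). Med12, a Mediator subunit, gave 44.8, 41.0 and 38.2 against 55.0, 61.3 and 59.1 CPM (log2 -0.50; adjusted p = 0.152 by edgeR and 0.000141 by DESeq2). Itgb6, an epithelial integrin subunit, gave 14.4, 13.6 and 13.6 against 9.98, 9.40 and 9.70 CPM (log2 0.52; adjusted p = 0.302 by edgeR and 0.0452 by DESeq2).

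The other tested genes whose 250 bases hold the LXR element did not lie to one side. Prrg4 gave 13.4, 19.8 and 15.6 CPM with GW3965 against 21.8, 28.9 and 28.6 CPM with troglitazone (log2 -0.70; adjusted p = 0.294 by edgeR and 0.0307 by DESeq2). Haao stood under 1 CPM in all 6 libraries (log2 -1.72; edgeR adjusted p = 0.587), Tmco4 differed by log2 0.17 and Tmem150c by 0.22. Over the 8 tested genes with the element, 5 differences were positive and 3 negative, with a median of 0.19.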
